A study of Mus musculus with 4 samples.

Results

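Phase II conjugating enzymes attach a polar group to drugs, hormones, bilirubin and other lipophilic compounds, and 45 of the 20909 genes in the authors' table code for members of 3 such families. They were taken by symbol: 15 UDP-glucuronosyltransferases (Ugt), 10 sulfotransferases (Sult) and 20 glutathione transferases, the last made up of 17 soluble or mitochondrial enzymes of the alpha, kappa, mu, pi and theta classes (Gsta, Gstk, Gstm, Gstp, Gstt) and 3 microsomal ones (Mgst). Ugt3a1 and Ugt3a2, whose human counterparts use other sugars, and Ugt8a, which makes galactolipids, are counted with the glucuronosyltransferases throughout. Each gene is read by 1 probe. The symbol rule itself uses no measured value.

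Glucuronosyltransferases sit in the endoplasmic reticulum and transfer glucuronic acid from UDP-glucuronate. Sulfotransferases of the cytosol use the activated sulfate donor PAPS, and glutathione transferases couple electrophiles to the tripeptide glutathione. The liver is the main site of all 3 reactions, and the conjugates leave hepatocytes through transporters of the ABC family. Many of these genes are known targets of the xenobiotic receptors CAR, PXR and AhR and of the oxidative stress factor NRF2.

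Livers of Wrn mutant mice were compared with livers of wild-type mice. All were C57Bl/6 males aged 3 months, fed freely, untreated, and housed with day and night reversed in periods of 12 h. Wrn encodes a DNA helicase whose human counterpart is lost in Werner syndrome, and the allele is not given in the labels. Each of 4 Agilent arrays compared RNA of 1 mutant and 1 wild-type liver in 2 colours, and the mutant carried Cy3 in pairs 1 and 2 and Cy5 in pairs 3 and 4. Each value below is the log2 ratio that the authors deposited for a probe and array, taken with the mutant as numerator. The titles and the name of the deposited table put the mutant first, which makes this direction likely but not stated, and with the wild type as numerator every sign would turn.

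Between 37627 and 40104 of 41174 probes had a value on an array, and array medians lay between 0.0037 and 0.018. The Wrn probe itself read 1.77, 0.91, 1.12 and 1.37 in pairs 1 to 4. It checks neither labels nor direction, since neither the altered part of the gene nor the stretch this probe reads is known here. Hepatocyte genes were bright: 11 of 11 markers found were above the median named probe, and Alb had an average log2 intensity of 15.8, while 0 of 6 kidney tubule markers were above that median. With 4 arrays, precision is limited throughout. In bulk RNA, fewer cells of a type and less RNA per cell cannot be told apart.

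Most of the conjugating enzymes read slightly higher in the mutant liver. The mean log2 ratio was above 0 in 32 of 45 genes, against 10907 of 20379 named probes with 3 or 4 values. The median was 0.15, against 0.044 over those named probes. Of the 42 genes with 4 values, 14 were higher in 4 of 4 pairs, or 33.3%, where 10.9% of all named probes with 4 values were. Another 3 were lower in 4 of 4 pairs, or 7.14%, against 10.1% of all named probes. Brighter probes gave much the same picture, with 13 of 36 genes higher in every pair, against 13.4% of the named probes brighter than the median (an average log2 intensity of 6.40). The genes lower in every pair were 3 of 36 brighter ones, against 12.7%. These shares were not tested.

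None of the 45 genes differed past the threshold: limma with a dye term and Benjamini-Hochberg adjustment left 0 members with an adjusted p under 0.05, as it left 0% of 40238 probes. At an unadjusted p under 0.05 there were 9 members, against 6.64% of all probes and 1887 of the 20379 named probes tested. Of the 9 members, 8 were higher (3.45% of all probes, 966 of the named ones). The other 1 was lower (3.19% of all probes, 921 of the named ones). Letting limma's prior variance depend on how bright a probe was, here called the intensity prior, gave 1 called member, Ugt1a9. That fit called 0.137% of 20379 named probes lower and 0.0687% higher, and put 12 members at an unadjusted p under 0.05, against 11.2% of named probes. With 4 pairs, exact sign flipping has a smallest two-sided p of 0.125 and can pass no gene. The plot of all members by pair shows each value.

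**Figure D1:**
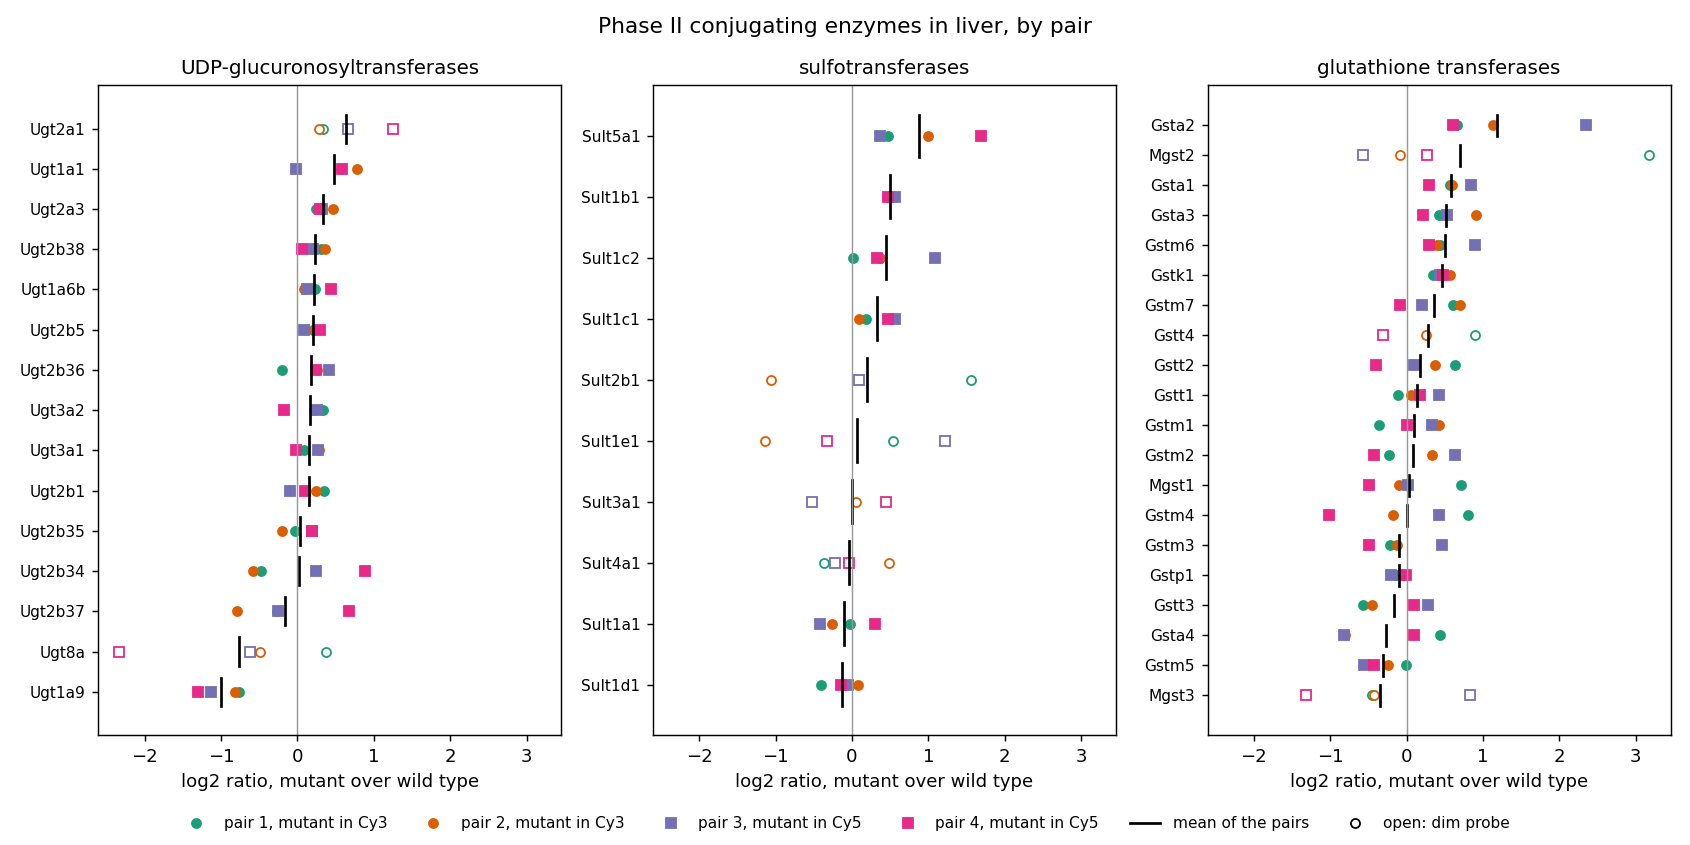
Log2 ratio of mutant over wild type (horizontal axis) of each of the 45 genes, by family and sorted by mean. Circles are pairs with the mutant in Cy3, squares pairs with the mutant in Cy5, black bars the mean of the pairs, and open marks probes not brighter than the median named probe. Ugt1a9 lies left of 0 in all 4 pairs and Gsta1, Gsta2 and Gsta3 lie right of 0 in all 4, while open marks spread most widely.

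The 3 families had similar medians over genes and differed in how steady these were from pair to pair. The median log2 ratio was 0.16 for glucuronosyltransferases, 0.13 for sulfotransferases and 0.12 for glutathione transferases. In pairs 1 to 4 the glucuronosyltransferase median was 0.23, 0.22, 0.20 and 0.24. The sulfotransferase median was 0.19, 0.083, 0.23 and 0.32 in the same pairs. For glutathione transferases it was 0.43, 0.15, 0.43 and -0.0041, so that pair 4 stood at 0 while pairs 1 and 3 were the highest of any family. Glutathione transferases minus sulfotransferases came to 0.25, 0.071, 0.20 and -0.33, with a different sign in pair 4. Glucuronosyltransferases minus glutathione transferases came to -0.21, 0.070, -0.23 and 0.24, so the families had no steady order. The glutathione transferase median was -0.00063 without pair 1, 0.040 without pair 3 and 0.30 without pair 4. For sulfotransferases it was 0.034 without pair 1, 0.44 without pair 2, 0.24 without pair 3 and 0.39 over the 6 brighter genes alone.

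**Figure D2:**
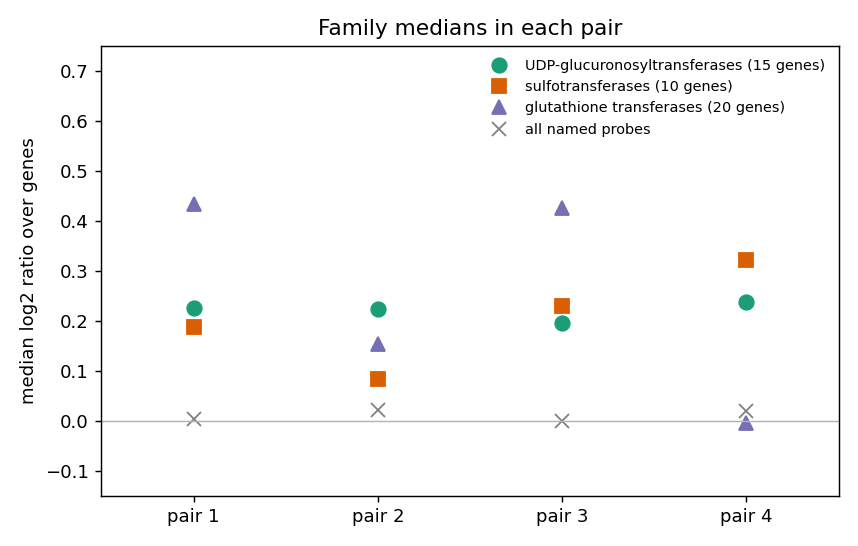
Median log2 ratio of mutant over wild type (vertical axis) over the genes of each family in each of the 4 pairs, with the median of all named probes as crosses. Glucuronosyltransferases stay between 0.20 and 0.24, whereas glutathione transferases range from -0.0041 in pair 4 to 0.43 in pairs 1 and 3.

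The Ugt1a locus held the clearest contrast among the glucuronosyltransferases. Its genes each have a first exon and promoter of their own and share the remaining exons, so that isoforms differ in the part that binds the substrate. Ugt1a9, an enzyme for phenols, read -0.76, -0.81, -1.13 and -1.30 in pairs 1 to 4. All pairs were well below 0, with a mean of -1.0 ± 0.26 (SD, n = 4), or 2.00-fold lower in the mutant. It fell in the fit with the intensity prior (adjusted p = 0.0408), but did not pass with the constant prior (adjusted p = 0.736). The call was also lost when the dye term was dropped from the intensity fit (adjusted p = 0.0509) and in that fit without pair 1, 2 or 4 (adjusted p from 0.0525 to 0.122). Without pair 3 it remained, at an adjusted p of 0.0459.

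Ugt1a1, the bilirubin-conjugating enzyme, read 0.57, 0.78, -0.014 and 0.58. It was higher in 3 pairs and at 0 in pair 3, with a mean of 0.48 ± 0.34 (SD, n = 4; adjusted p = 0.736). Ugt1a6b, an enzyme for planar phenols, read 0.23, 0.086, 0.12 and 0.44. It was higher in 4 of 4 pairs by a small margin, with a mean of 0.22 ± 0.16 (SD, n = 4; adjusted p = 0.779), and was at 0.14 in the fit without pair 4. Ugt1a1 exceeded Ugt1a9 on the same array by 1.33, 1.60, 1.11 and 1.88 log2 units in pairs 1 to 4, a mean of 1.48 ± 0.33 (SD, n = 4; exact two-sided sign-flip p = 0.125). The contrast was drawn with the values known, and its p is the smallest that 4 pairs can give, so it carries no weight as a test. A probe in the shared exons would read every isoform of the locus, and the positions of these probes are not known here.

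The promoters of Ugt1a1 and Ugt1a9 are shown because each isoform starts from its own. They are RefSeq sequences of build GRCm38.p6, from 250 bases before to 50 bases after the start, for Ugt1a1 at chr1:88211709-88212008 on the plus strand and for Ugt1a9 at chr1:88070529-88070828 on the plus strand. Capitals mark matches, on either strand, to any of 4 motifs: the antioxidant response element core TGACNNNGC, the dioxin response element core GCGTG, the nuclear receptor half-site AGGTCA and the half-site GTTAAT of the liver factor HNF1.
Ugt1a1: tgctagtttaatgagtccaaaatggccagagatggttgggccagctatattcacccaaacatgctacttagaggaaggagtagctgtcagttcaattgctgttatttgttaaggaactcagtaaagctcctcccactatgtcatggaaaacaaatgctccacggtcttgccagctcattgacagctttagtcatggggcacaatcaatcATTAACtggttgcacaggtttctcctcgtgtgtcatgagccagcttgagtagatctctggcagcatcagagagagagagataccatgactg
Ugt1a9: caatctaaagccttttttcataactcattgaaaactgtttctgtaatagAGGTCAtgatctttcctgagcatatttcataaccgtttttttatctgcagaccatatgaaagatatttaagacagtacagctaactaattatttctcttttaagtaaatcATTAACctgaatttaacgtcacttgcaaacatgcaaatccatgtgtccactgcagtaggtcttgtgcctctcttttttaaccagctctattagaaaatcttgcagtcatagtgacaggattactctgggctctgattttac
Both windows held an HNF1 half-site, 41 bases before the start in Ugt1a1 and 91 before it in Ugt1a9. Ugt1a9 also held a nuclear receptor half-site 201 bases before the start, and neither window held the other motifs. The HNF1 half-site occurred in 7.1% of all 32851 promoter windows and the nuclear receptor half-site in 16.3%. Such matches describe the letters and are not shown to be bound sites.

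The Ugt2 genes read close to 0 and mostly above it, with a mean above 0 in 8 of 9 and a median of 0.18. Of all named probes with 3 or 4 values, 10907 of 20379 had a mean above 0. Ugt2a3, whose human counterpart conjugates bile acids, read 0.25, 0.46, 0.32 and 0.30. These are close together and all above 0, with a mean of 0.33 ± 0.094 (SD, n = 4; adjusted p = 0.736). Ugt2b38 read 0.31, 0.36, 0.21 and 0.062, a mean of 0.23 ± 0.13 (SD, n = 4), and Ugt2b5 read 0.21, 0.22, 0.082 and 0.30, a mean of 0.20 ± 0.088 (SD, n = 4). Both were higher in 4 of 4 pairs and neither passed (adjusted p = 0.761 and 0.784). Ugt2b1, whose rat counterpart conjugates bisphenol A, was at 0.35, 0.25, -0.091 and 0.098, with pair 3 just below 0 and a mean of 0.15 ± 0.19 (SD, n = 4).

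Among the remaining Ugt2b genes, Ugt2b35 and Ugt2b36 had means of 0.037 and 0.18 with mixed signs. Ugt2b34 and Ugt2b37 differed more between pairs, from -0.58 to 0.89 and from -0.79 to 0.68, each with its highest value in pair 4. For Ugt2b34 both pairs with the mutant in Cy3 were negative and both with the mutant in Cy5 positive, a pattern in which dye and animals cannot be told apart. Ugt3a1 and Ugt3a2, which in humans use sugars other than glucuronic acid, had nearly equal means of 0.15 ± 0.15 and 0.16 ± 0.23 (SD, n = 4), and in both only pair 4 was negative.

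Dim glucuronosyltransferase probes gave wide values. Ugt2a1, known from the olfactory epithelium, read 0.33, 0.28, 0.66 and 1.26, all above 0, at an average log2 intensity of 5.78 (adjusted p = 0.736). Ugt8a, which makes the galactolipids of myelin rather than drug conjugates, read 0.37, -0.49, -0.62 and -2.33, with its low mean of -0.77 ± 1.13 (SD, n = 4) set by pair 4. It was at -0.34 in the fit without that pair.

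Sulfotransferases showed the steadiest single gene of the whole group. Sult1b1, an enzyme for thyroid hormones and phenols, read 0.48, 0.45, 0.56 and 0.47. The pairs spanned both dye orientations with almost no spread, for a mean of 0.49 ± 0.048 (SD, n = 4), or 1.41-fold, the smallest SD of the 42 members with 4 values. It did not pass (adjusted p = 0.736, and 0.128 with the intensity prior). Sult5a1 had the highest mean of the family, from 0.47, 1.00, 0.36 and 1.68. All pairs were above 0 but differed widely, for a mean of 0.88 ± 0.60 (SD, n = 4), or 1.84-fold (adjusted p = 0.736). It was at 0.55 in the fit without pair 4. In the intensity fit without pair 3, Sult5a1 was called, besides Ugt1a9 (adjusted p = 0.0374, and 0.249 to 0.361 without another pair).

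The related genes Sult1c1 and Sult1c2 were also higher in 4 of 4 pairs. Sult1c1 read 0.19, 0.087, 0.57 and 0.47, and Sult1c2 read 0.019, 0.36, 1.09 and 0.32, with means of 0.33 ± 0.23 and 0.45 ± 0.46 (SD, n = 4). Neither passed (adjusted p = 0.736 for each). Pair 3 was the highest for both, and Sult1c2 was at 0.26 in the fit without pair 3. The Sult1c1 probe was only just bright, at an average log2 intensity of 6.84 against the median of 6.40. As close relatives they may cross-hybridise.

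Other sulfotransferases of the liver did not share this. Sult1a1, the main phenol sulfotransferase, read -0.032, -0.26, -0.41 and 0.30, on both sides of 0 with a mean of -0.099 ± 0.31 (SD, n = 4). Sult1d1, which sulfonates catecholamines, read -0.41, 0.078, -0.047 and -0.15, a mean of -0.13 ± 0.21 (SD, n = 4), and was at -0.010 in the fit without pair 1. On each array Sult1b1 exceeded Sult1d1, by 0.37 to 0.89 log2 units and a mean of 0.62 ± 0.21 (SD, n = 4; exact two-sided sign-flip p = 0.125). That contrast too was drawn with the values known, and its p is the smallest that 4 pairs can give.

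The estrogen sulfotransferase Sult1e1 was dim and ranged from -1.14 in pair 2 to 1.21 in pair 3. The sterol sulfotransferase Sult2b1 had 3 values, 1.56, -1.06 and 0.095, with none in pair 4, and Sult3a1 had 3 values from -0.52 to 0.45, with none in pair 1. Sult4a1, a gene mainly of the brain, had a mean of -0.036 ± 0.37 (SD, n = 4). Sult2a1 and Ugt1a6a were not analysed here.

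Alpha-class glutathione transferases read higher in the mutant with 1 exception. Gsta1, a major alpha-class enzyme of liver, read 0.57, 0.59, 0.85 and 0.29. Its mean was 0.57 ± 0.23 (SD, n = 4), or 1.49-fold. Gsta2, a close relative of Gsta1, read 0.66, 1.13, 2.35 and 0.60, for a mean of 1.18 ± 0.81 (SD, n = 4). This 2.27-fold ratio was the highest of all members. Gsta3, known for detoxifying aflatoxin epoxide in mice, read 0.43, 0.91, 0.52 and 0.21, a mean of 0.52 ± 0.29 (SD, n = 4). This is 1.43-fold. These 3 genes are related, share their arrays and were set apart from Gsta4 by their values. Each was above 0 in every pair, and pair 4 was the lowest for each. None passed over all probes (adjusted p = 0.736 for each, and 0.167 to 0.208 with the intensity prior). Gsta2 rested most on pair 3. It was at 0.75 in the fit without pair 3, and at 1.62 without pair 4, where the intensity fit called it (adjusted p = 0.020, and 0.151 to 0.305 without another pair).

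Gsta4, which detoxifies the lipid peroxidation product 4-hydroxynonenal, was the exception at 0.44, -0.81, -0.82 and 0.10. Pairs 2 and 3 were low and pairs 1 and 4 above 0, for a mean of -0.27 ± 0.64 (SD, n = 4; adjusted p = 0.837). The authors' deposited table gives Gsta4 a log2 fold change of 0.28, of opposite sign. For the other 44 members the authors' deposited table equals the mean of the arrays within 1e-04, and what made this value differ is not stated. Among all 17686 named probes with 4 values, 149 differed in this way. By the deposited value Gsta4 would be no exception, and with the deposited fold changes the glutathione transferase median was 0.16 in place of 0.12. Gsta1 exceeded Gsta4 in each pair, by 0.13, 1.40, 1.66 and 0.19 log2 units (exact two-sided sign-flip p = 0.125). Gsta2 exceeded Gsta4 in each pair as well. Gsta3 did not, with a difference of -0.010 in pair 1 (exact two-sided sign-flip p = 0.25). These contrasts were drawn with the values known, and 0.125 is the smallest p that 4 pairs can give.

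The promoter windows of the 3 alpha-class genes that read higher in every pair are shown because their ratios lay on the same side of 0 throughout. They lie at chr9:78230419-78230718 on the plus strand for Gsta1, chr9:78347096-78347395 on the minus strand for Gsta2 and chr1:21240335-21240634 on the plus strand for Gsta3, in build GRCm38.p6 from RefSeq. Capitals mark the same 4 motifs as above.
Gsta1: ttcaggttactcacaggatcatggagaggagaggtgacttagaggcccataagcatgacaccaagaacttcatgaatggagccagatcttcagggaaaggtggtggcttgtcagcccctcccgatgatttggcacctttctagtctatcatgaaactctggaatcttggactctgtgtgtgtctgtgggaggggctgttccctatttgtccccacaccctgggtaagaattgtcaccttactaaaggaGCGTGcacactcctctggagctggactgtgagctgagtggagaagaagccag
Gsta2: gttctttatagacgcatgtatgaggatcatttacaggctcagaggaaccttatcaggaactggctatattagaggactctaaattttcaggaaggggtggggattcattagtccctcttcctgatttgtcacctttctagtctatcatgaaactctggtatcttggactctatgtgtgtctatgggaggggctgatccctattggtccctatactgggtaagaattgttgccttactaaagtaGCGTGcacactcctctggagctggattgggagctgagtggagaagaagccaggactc
Gsta3: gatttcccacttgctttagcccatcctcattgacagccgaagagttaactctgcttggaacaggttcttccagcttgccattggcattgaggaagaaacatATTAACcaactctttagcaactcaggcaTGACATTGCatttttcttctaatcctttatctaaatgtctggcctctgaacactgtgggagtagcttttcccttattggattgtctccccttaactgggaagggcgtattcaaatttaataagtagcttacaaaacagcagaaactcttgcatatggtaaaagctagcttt
The windows of Gsta1 and Gsta2 were alike, with 232 identical bases among 289 aligned, or 80.3%. Both held a dioxin response element core next to the start, beginning 2 bases before it in Gsta1 and 7 bases before it in Gsta2. That core occurred in 32.4% of all promoter windows. The window of Gsta3 held an antioxidant response element core 121 bases before the start, found in 12.4% of all windows, and an HNF1 half-site 149 bases before it. Probes for such close relatives may cross-hybridise, so the ratios of Gsta1 and Gsta2 need not be independent readings.

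The mu class, 7 genes that lie side by side, had a median of 0.079 and no common direction. Gstm6 read 0.44, 0.39, 0.89 and 0.29, above 0 in every pair with a mean of 0.50 ± 0.27 (SD, n = 4; adjusted p = 0.736). Gstm5 read -0.011, -0.24, -0.55 and -0.43, below 0 in every pair with a mean of -0.31 ± 0.24 (SD, n = 4; adjusted p = 0.737), and is named because it is 1 of the 3 genes lower in every pair. Gstm1, a main mu-class enzyme of liver, had a mean of 0.099 ± 0.35 and Gstm3 one of -0.094 ± 0.40 (SD, n = 4). Gstm2, Gstm4 and Gstm7 had means of 0.079, 0.0067 and 0.36 with pairs on both sides of 0.

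Gstk1, the kappa-class enzyme of mitochondria and peroxisomes, was among the steadiest members at 0.35, 0.57, 0.44 and 0.48. Its mean was 0.46 ± 0.093 (SD, n = 4), or 1.37-fold, and it was higher in 4 of 4 pairs (adjusted p = 0.736, and 0.177 with the intensity prior). Gstp1, the pi-class enzyme, which is more abundant in male than in female mouse liver, read -0.13, -0.044, -0.20 and -0.012. It was below 0 in 4 of 4 pairs by very little, with a mean of -0.098 ± 0.087 (SD, n = 4; adjusted p = 0.879). In the theta class, Gstt1 had a mean of 0.14 ± 0.23 (SD, n = 4). Of the 3 theta genes with 4 values, 0 had the same sign in all pairs. Signs were mixed in 13973 of 17686 named probes with 4 values too.

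Microsomal glutathione transferases gave no steady reading. Mgst1, abundant in the endoplasmic reticulum and outer mitochondrial membrane of liver, was bright and read 0.72, -0.096, 0.017 and -0.49, a mean of 0.036 ± 0.50 (SD, n = 4). Mgst2, which can make leukotriene C4, was dim and read 3.18, -0.089, -0.56 and 0.26. Its mean of 0.70 ± 1.69 (SD, n = 4) rested on pair 1, and it was at -0.12 in the fit without that pair. Mgst3 was dim as well, from -1.32 in pair 4 to 0.83 in pair 3.

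Neighbouring genes in the Ugt1a, Ugt2 and Gstm groups had means on both sides of 0, whereas both Sult1c genes and both Ugt3a genes had means above 0. In the RefSeq order, 9 Ugt2 genes are followed by Sult1b1, Sult1d1 and Sult1e1, with means from -0.16 for Ugt2b37 to 0.63 for Ugt2a1. The 3 Ugt1a genes spanned 1.48 log2 units between their means, Gsta4, Gsta1 and Gsta2 1.46 and the 7 Gstm genes 0.81, whereas the 7 Ugt2b genes spanned 0.39. Ugt1a9 and Ugt1a6b, side by side in the plot by gene order, differed by 1.22 ± 0.38 (SD, n = 4).

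**Figure D3:**
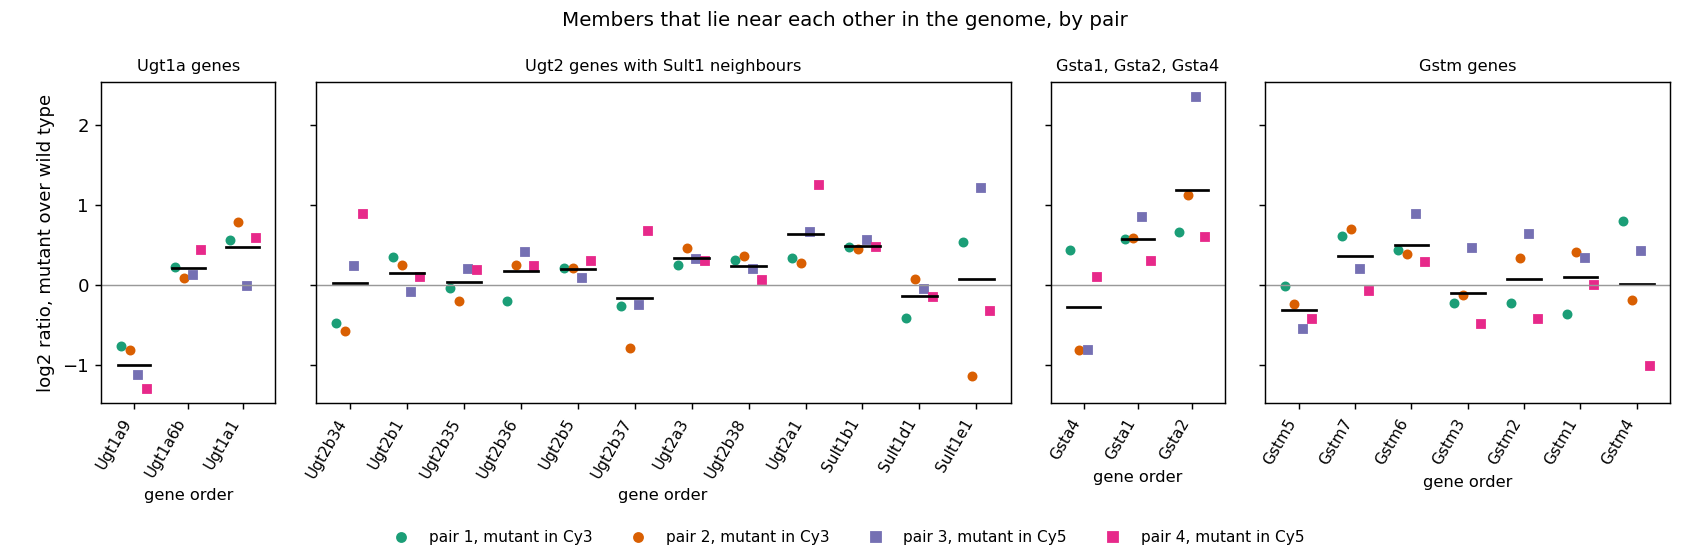
Log2 ratio of mutant over wild type (vertical axis) of members in the order of the RefSeq annotation (horizontal axis, not to scale), for 4 groups of nearby genes (Gsta3 lies elsewhere). Points are the 4 pairs, with circles for the mutant in Cy3 and squares for the mutant in Cy5, and bars are means. All 4 points of Ugt1a9 lie below all points of Ugt1a6b and Ugt1a1.

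Over all members, 40 of 45 had a promoter window in the RefSeq table, 49 windows in all. The antioxidant response element core was in 4 of them (8.16%, against 12.4% of all windows), in genes with both signs: Gsta3, Gstm5, Gstm7 and Mgst1. The HNF1 half-site was in 7 (14.3%, against 7.1%), the nuclear receptor half-site in 10 (20.4%, against 16.3%) and the dioxin response element core in 12 (24.5%, against 32.4%). Members of a cluster share ancestry, so these windows are not independent, and the shares were not tested.

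Ratios of dim probes spread more widely between pairs. Among the 42 members with 4 values, the SD over pairs and the average log2 intensity had a Spearman correlation of -0.56 across genes, which share their arrays. The median SD was 0.26 for the 36 brighter genes and 0.96 for the dim ones with 4 values. Across the 36 brighter genes, the 6 correlations between arrays ran from 0.15 to 0.66 with a median of 0.36. Over all 10156 bright named probes with 4 values they ran from 0.16 to 0.37 with a median of 0.20. In the plot of ratio against intensity, Ugt1a9, Gsta2 and Sult5a1 are the bright members farthest from 0.

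**Figure D4:**
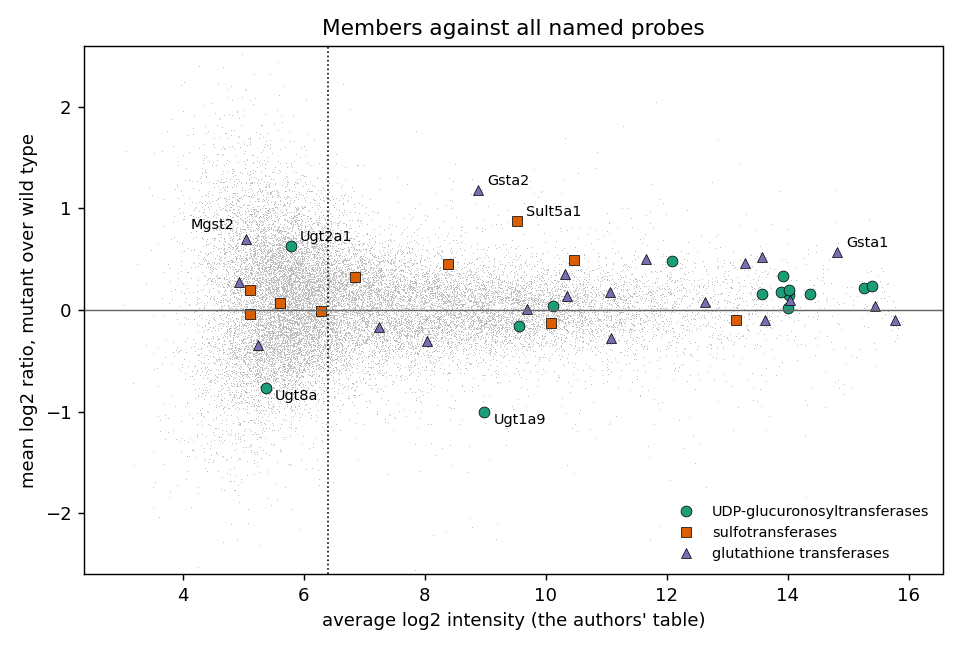
Mean log2 ratio of mutant over wild type (vertical axis, drawn from -2.6 to 2.6) against average log2 intensity from the authors' deposited table (horizontal axis), with all named probes as grey dots and the 45 members as coloured marks. The dotted line is the median intensity of 6.40. Left of it lie the 9 dim members, while the bright members other than Ugt1a9, Gsta2 and Sult5a1 lie between -0.31 and 0.57.

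Genes around the conjugating enzymes were compared as 7 lists, and 0 of their 98 measured genes passed in limma over every probe, as did 0% of all probes. Over all named probes with 4 values, 10.9% were higher and 10.1% lower in every pair, and these are the shares to set beside the counts that follow. Of 15 genes of glutathione supply and recycling, 5 were higher and 2 lower in 4 of 4 pairs, with a median of 0.20. Gss, the second enzyme of glutathione synthesis, read 0.36, 0.38, 0.14 and 1.40, and Dpep1, a dipeptidase that breaks down glutathione conjugates, read 1.53, 0.52, -0.22 and 0.30. Both had a single pair far above the rest. The lower genes were Gsr, glutathione reductase, at -0.53 ± 0.30, and Ggt6 at -0.50 ± 0.10 (SD, n = 4), chosen after their values were seen.

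The lists for the other donors, which include hydrolysis of the conjugates, each had means on both sides of 0. The 6 genes of glucuronidation cofactor and hydrolysis had a median of 0.16. Ugp2, which makes UDP-glucose, was at 0.74 ± 0.89 and the transporter Slc35b1 at -0.60 ± 0.39 (SD, n = 4). The 8 genes of sulfonation supply and hydrolysis had a median of 0.27. In 4 of 4 pairs 3 of them were higher (Slc35b2, Sts and the dim Bpnt1) and 1 lower (Slc35b3). Slc35b3, a PAPS transporter, was at -0.40 ± 0.12 and sulfite oxidase, Suox, at 0.59 ± 0.48 (SD, n = 4). Among 18 other conjugating enzymes the median was 0.087, and the methyltransferases Inmt and As3mt stood at 0.63 ± 0.37 and -0.57 ± 0.37 (SD, n = 4), each with 1 sign in 4 of 4 pairs.

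Of 8 ABC transporters listed for conjugate export, drug efflux pumps included, 2 were higher and 1 lower in every pair. Abcc3, which moves glucuronides into blood, read 0.61, 0.78, 1.14 and 0.28, for a mean of 0.70 ± 0.36 (SD, n = 4). Abcb1b, a drug efflux pump, read -2.07, -0.54, -0.39 and -0.49, with pair 1 far below the others.

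Among 25 regulators of these genes, 3 were higher in 4 of 4 pairs and 0 lower, with a median of -0.036. Nr1i3, the xenobiotic receptor CAR, read 0.71, 0.66, 0.58 and 0.98. It was high in every pair, with a mean of 0.73 ± 0.17 (SD, n = 4; adjusted p = 0.736, and 0.063 with the intensity prior). Nr0b2, the corepressor SHP, read -1.47, -1.02, -0.55 and 0.56, low in 3 pairs and above 0 in pair 4. The 18 receptor targets outside phase II had a median of -0.12, with 1 higher and 1 lower in every pair. In that list Alas1, the first enzyme of heme synthesis, was at 0.79 ± 0.98 and the PPAR alpha target Cyp4a10 at 1.23 ± 1.31 (SD, n = 4), both with 1 pair below 0.

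Cell type markers that could move with these ratios were read on the same arrays. Hepatocyte markers, 11 of 12 found, had a median of 0.051, with 0.25, 0.34, -0.18 and -0.071 in pairs 1 to 4. Cholangiocyte markers had a median of -0.42, below 0 in each pair, and macrophage markers one of 0.63, with 0.75, 1.00, -0.22 and 0.98. Endothelial and B cell markers were above 0 in each pair, with medians of 0.45 and 0.89. Stellate cell and fibroblast markers had a median of 0.19, with -0.64, 0.41, 0.54 and 0.12 in pairs 1 to 4. T and NK cell, neutrophil and adipocyte markers, mostly dim, had medians of 0.30, -0.034 and 0.18. For kidney tubule, exocrine pancreas and intestinal epithelium, also mostly dim, medians were -0.36, 0.42 and -0.12. The part of cell composition in these ratios was not tested.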

How the data were processed

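Per the file headers, the deposited files hold a log2 ratio for every probe on every array and, in a gene table, the log2 fold change, an average log2 intensity and a p-value. Limma is named in the submitters' processing notes. Its version, any background correction and normalization, and how 1 probe came to stand for a gene were not given in the sources used here. Deposited p-values stayed unused. Members were rows of that table whose symbol starts with Ugt, Sult, Gsta, Gstk, Gstm, Gstp, Gstt or Mgst and a digit. All 45 accessions matched the RefSeq table of GRCm38.p6, used for names and order, and 0 symbols had changed. The members and lists were chosen with earlier results of these data known.

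Probes with at least 3 values (40238 of 41174) were fitted in R 4.3.3 with limma 3.58.1 (lmFit, eBayes) on genotype plus a dye term, with 2 residual degrees of freedom at 4 values and Benjamini-Hochberg adjustment over all probes at 0.05. The fit was tested on simulated data. Mean ± SD is over the pairs, which the labels call biological replicates. Leaving out a pair makes the lone pair of its orientation count as much as both pairs of the other. Named members were, in each family, the 5 bright and 2 dim genes with the largest absolute mean among those with 4 values, and 20 well-studied genes, of which 18 were found. Of each pathway list the 2 bright genes with the largest absolute mean were named. Alternatives were no dye term, other priors, probe filters, array weights, centring, scaling, another threshold, an unmoderated test, turned signs and leaving out each pair.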

Additional observations from a re-analysis of the deposited data

Results flagged for a closer look

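Dixon's test was applied to 39 results (named members with 4 values, family medians and class medians) to look for 1 pair standing apart. It found 0, where chance alone gives about 1.95.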

How the results depend on the processing

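Of 31 named members, 22 kept their sign in every fit run, including those without 1 pair. Among the 22, Sult2b1 was not put to that test, since its 3 values are too few to fit with 1 left out. The other 9 changed sign without a pair, with log2 ratios from -0.58 to 0.041 for Gsta4, -0.096 to 0.29 for Gstm1, -0.33 to 0.14 for Gstm3, -0.17 to 0.24 for Mgst1, -0.12 to 1.51 for Mgst2, -0.88 to 0.19 for Mgst3, -0.28 to 0.080 for Sult1a1, -0.35 to 0.49 for Sult1e1 and -0.25 to 0.18 for Sult4a1. The count of 0 probes called, and of 0 members, was the same without each pair. With a prior following intensity, 42 probes and 1 member were called, and 40 and 0 without the dye term as well, a setting chosen after seeing the data. In that prior's fits without 1 pair, also added, 2, 23, 116 and 153 probes were called without pair 1, 2, 3 and 4, and from 0 to 2 members. Among bright named probes 1 was called. Without 1 pair, 4 to 5 members were lower in every remaining pair, and 14 to 18 higher, since fewer pairs need to share a sign. The share of all named probes under that looser rule is not given here, so these counts cannot be set against a background. Family medians without 1 pair ran from 0.13 to 0.18 for glucuronosyltransferases, 0.034 to 0.44 for sulfotransferases and -0.00063 to 0.30 for glutathione transferases. The glucuronosyltransferase mean was 0.058 against the median of 0.16, and with the sign turned on the pairs with the mutant in Cy3 the median was -0.023. The sulfotransferase median was 0.39 over bright probes. Every fit here is already paired, since each ratio compares a mutant and a wild-type liver on 1 array, and no further replicate block could be added. One value per group of near-identical proteins was not run, since no protein sequences were used here. Signal over background was not analysed here, and dim probes limit 9 members.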

Other observations

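Genes that differ between the sexes in mouse liver were read because several conjugating enzymes do so too, and all animals here were males. Of 17 female-predominant genes measured, 13 had 4 values, and 5 of these were above 0 and 2 below 0 in every pair, where 10.9% and 10.1% of all named probes with 4 values were. Their list had a median of 0.38 on the log2 scale. Cyp2b13, a cytochrome P450, read 0.61, 1.44, 2.40 and 0.65 in pairs 1 to 4, a mean of 1.28 ± 0.84 (SD, n = 4). Cyp2b9, singled out after its values were seen, was dim and read 5.27, 2.64, 3.69 and 0.60, while Cyp2b10, a target of CAR in the same family, read -0.41, 0.30, 1.46 and 0.099. Acot3, an acyl-CoA thioesterase, was above 0 in 3 pairs and at -0.99 in pair 4. The 2 below 0 in every pair, Cux2 and Trim24, had means of -0.21 ± 0.12 and -0.51 ± 0.51 (SD, n = 4). Of 18 male-predominant genes measured, 17 had 4 values, and 2 of these were above 0 and 1 below 0 in every pair, against the same shares. The median of the 18 was -0.19. Cyp7b1, an oxysterol hydroxylase, read -1.43, -1.09, -1.67 and 0.61, and Moxd1 read -4.10, 0.23, -5.49 and -0.91. None of these passed the limma test over all probes.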
